A study of Homo sapiens with 8 samples.

Results

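Neuronal genes that REST and its co-repressor CoREST keep silent outside the nervous system were examined in open chromatin maps of U-937, a human leukaemia cell line of monocytic type. The set holds 41 genes, taken from a list of genes of this class, out of 20007 protein-coding genes in the annotation. A region was counted for a gene when it overlapped the gene body or the 10 kb on either side, which gave 383 of 161291 regions and at least 1 region for 39 of the 41 genes. GRIA2 and NEFL had none. Chromatin was profiled by ATAC-seq, in which a transposase inserts sequencing adapters into accessible DNA. The 8 samples formed 4 groups of 2, all of the same line and all collected after 24 h. The groups were the vehicle DMSO, ATRA at 0.1 µM, Corin at 0.1 µM, and ATRA plus Corin at 0.1 µM each, called the combination here. The files used here hold 1 peak list per group, pooled over its 2 samples, so replicate spread is not known for any value below, and treatments could be compared only by description. Intervals on shares are 95% Wilson intervals and cover counting error over regions only.

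REST is a zinc finger protein that binds a long element called RE1, found near many genes for synaptic, ion channel and secretory proteins. It recruits co-repressors, among them SIN3A and CoREST, and CoREST carries the histone demethylase LSD1 (KDM1A) together with the histone deacetylases HDAC1 and HDAC2. In cells outside the nervous system this keeps the neuronal programme off. Corin is a small molecule that inhibits both enzyme activities of the CoREST complex, and ATRA, all-trans retinoic acid, activates the retinoic acid receptors and drives differentiation of myeloid cells.

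The lists held 94917 to 116563 regions after overlapping peaks had been merged, most for DMSO and fewest for the combination. Read depth is unknown. The background level recovered from the peak scores was lowest for ATRA, a read pileup of 9.12. It was 12.8 in the DMSO list, 13.14 with Corin and 13.94 with both compounds. The median fold over local background of all regions was 5.15 in DMSO, 7.81 in ATRA, 5.16 in Corin and 6.16 in the combination. Folds below are therefore not on the same scale in each list. Of 10 myeloid marker genes fixed for a check of the label, 9 had an open region at a start of their own in every list, and MPO, a gene of primary granules, had none in any list. The other marker lists were small: 1 of 3 T cell genes and 2 of 3 B cell genes were open in every list, and of the erythroid genes 1 of 3 was open in DMSO and Corin and 0 in the others. Among the neuron markers RBFOX3, DCX and MAP2, MAP2 was open in every list, and 2 of the 3 were open in the combination. Their part in the results was not tested.

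The RE1 element was searched for in the hg38 sequence on both strands as TTCAGCACC, 2 free bases, GGACAG, 1 free base and GCC, with at most 3 mismatches among its 18 fixed letters. Matches that lay within 150 bp of the summit of an open region near the neuronal genes are shown first, because they are the places where a REST element and an accessible region met. Only 1 match is shown per region, the one nearest the summit. The regions of L1CAM and CELF4 each held a further match, which is not shown. Capitals mark letters equal to the element, and lower case marks free bases and mismatches. Each is read 5′ to 3′ on the strand of the match.
CHRNB2, chr1:154567954-154567974: TTCAGCACCacGGACAGcGCC
SYN1, chrX:47620070-47620090: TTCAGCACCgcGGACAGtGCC
CHGB, chr20:5911704-5911724: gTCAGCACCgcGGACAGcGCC
SYP, chrX:49200122-49200142: TcCAGCACCgtGGACAGaGCC
VGF, chr7:101165559-101165579: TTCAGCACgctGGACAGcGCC
L1CAM, chrX:153875502-153875522: TTCAGCACCagGGACAGcGaa
SNAP25, chr20:10219672-10219692: TTCAGCACCggGGACAGcGgt
CHGA, chr14:92923523-92923543: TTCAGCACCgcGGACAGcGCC
CELF4, chr18:37270239-37270259: aTCAGCACCatGGACAGgtCa
NRXN3, chr14:78848381-78848401: TcCAGCACCtgacACAGaGCC
SLC12A5, exon, chr20:46041074-46041094: TTCAGCACCgtGGACAGcGgt
SLC12A5, intron, chr20:46027438-46027458: TTCAGgACCatGGACAGgatC
CHGA, CHRNB2 and SYN1 carry all 18 fixed letters. A second set is shown because it also matches the element at every fixed letter, yet lies in no region of any of the 4 lists.
GRIA2, chr4:157220388-157220408: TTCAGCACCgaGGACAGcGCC
GRIN1, chr9:137139260-137139280: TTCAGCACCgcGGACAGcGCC
BDNF, chr11:27720676-27720696: TTCAGCACCttGGACAGaGCC
UNC13A, chr19:17681753-17681773: TTCAGCACCgtGGACAGcGCC
NEFH, chr22:29478675-29478695: TTCAGCACCggGGACAGgGCC
The windows of 30 of the 41 genes (73.2%) held at least 1 match, against 17.3% of all protein-coding genes. These were 57 matches in all, 24 of them within 1 kb of an annotated start of the gene, and 8 of the 57 were exact. Per Mb there were 7.20 matches in the windows of the neuronal genes, 2.43 in those of all protein-coding genes and 1.91 in the genome. The genes were listed as a class silenced by REST, so this excess is not independent of the choice of genes. Of the 57 matches, 16 (28.1%) lay inside an open region of some list, compared with 12.7% of the matches near all protein-coding genes and 10.4% of the 5899 matches in the genome. These shares were not matched for distance to a start, so they do not show that matches near neuronal genes were unusually open. Of the 8 exact matches, 3 were in an open region.

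Regions with an RE1 match at their summit made up 13 of the 383 regions near the neuronal genes, or 3.39% (1.99 to 5.72). Over all 161291 regions the share was 0.211%, from 341 regions. This difference too is not independent of the choice of genes. The reversed, not complemented element, searched as a control for base composition, gave 0 of 383 and 17 of 161291. A match is a description of the sequence and does not show that REST was bound.

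Of these 13 regions, 5 were called in every list, and all of them were at gene starts: CHRNB2, VGF, CHGB, SYN1 and SYP. The region at the start of CHGB, a protein of secretory granules, had a fold over its local background of 11.1 in DMSO, 16.5 in ATRA, 5.87 in Corin and 6.83 in the combination. Corin and the combination were thus the lower values and ATRA the highest. As a percentile rank among the 66303 regions called in all 4 lists, which removes the difference in scale between lists, the same region stood at 65.1, 74.5, 34.8 and 36.7. SYP, an integral protein of synaptic vesicles, had the highest fold of the 13, at 16.8 in DMSO, 19.3 in ATRA, 16.4 in Corin and 20.8 in the combination. SYN1, which tethers synaptic vesicles, stayed between 4.28 and 5.44 in all lists. VGF, a secreted neuropeptide precursor, had 5.07, 7.84, 4.52 and 5.60 in the same order. For CHRNB2, a nicotinic acetylcholine receptor subunit, the values were 6.91, 17.2, 6.05 and 7.95, with a rank of 77.7 in ATRA against 36.1 in DMSO. The read pileup of that region was nearly equal in these lists, 203 in ATRA and 205 in DMSO, and its local background was 10.8 against 28.8. Pileups were not scaled between lists, whose most frequent backgrounds were 9.12 in ATRA and 12.8 in DMSO. What the difference in fold came from was not tested.

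The other 8 regions were missing from the Corin list, and of those described here only that of L1CAM was in the combination. The start of L1CAM, a neural adhesion molecule, had a fold of 4.34 in DMSO, 9.70 in ATRA and 5.77 in the combination. Here too the unscaled pileups of DMSO and ATRA were close, 144 and 150, and the local backgrounds were 32.4 and 14.6. A second, weaker region within 1 kb of another L1CAM start was in the DMSO and Corin lists, with a fold of 1.74 and 2.02. Regions at the start of SNAP25, a SNARE protein of vesicle fusion, and in an intron of NRXN3, a presynaptic adhesion receptor, were in the DMSO and ATRA lists only. SNAP25 had a fold of 3.12 and 3.66 there and NRXN3 of 3.84 and 5.34. DMSO alone held the start of CHGA, a granule protein, at 2.10, a start region of CELF4, an RNA-binding protein, at 3.21 (the combination had another, at 2.11), and an exonic region of SLC12A5, the neuronal potassium-chloride cotransporter, at 4.16. ATRA alone held an intronic region of SLC12A5 at 3.65. TUBB3, a neuronal tubulin, also had a match in a region called in every list, 284 bp from its summit and so outside the window searched.

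**Figure D1:**
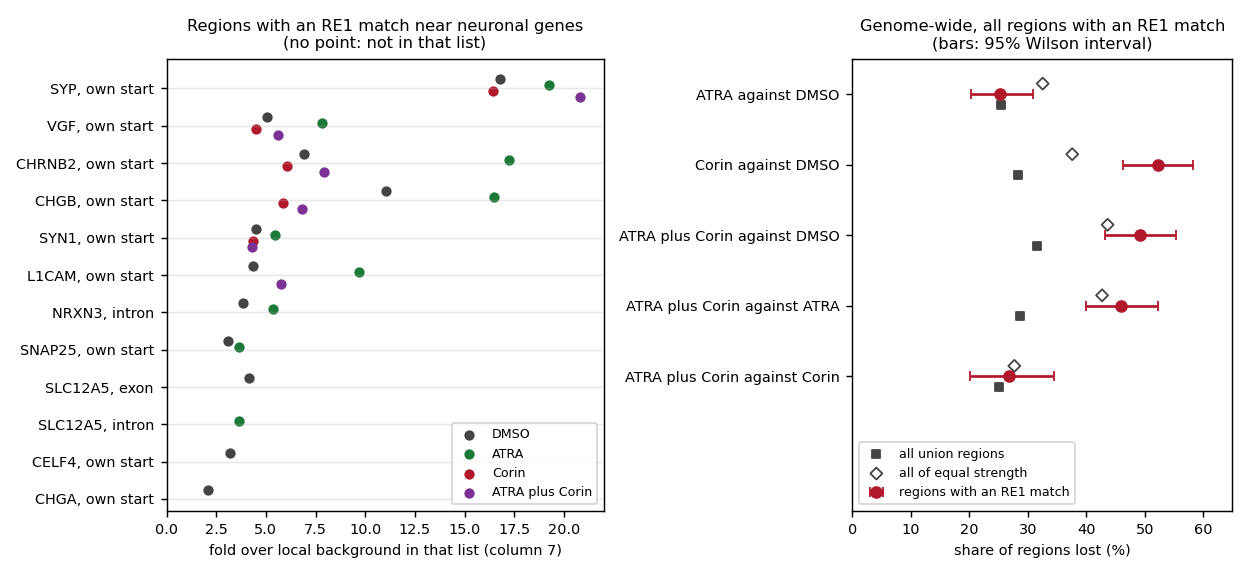
Left, fold over local background (column 7 of the peak lists) of regions near neuronal genes with an RE1 match, with 1 point per list that holds the region. Right, percent of all regions with an RE1 match that were lost in each comparison, with 95% Wilson intervals, beside the percent of all regions and of regions of equal strength. In the left panel only the 5 upper regions have a Corin point, and in the right panel 52.3% were lost with Corin against 28.4% of all regions.

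Of the 11 RE1 regions near neuronal genes in the DMSO list, 6 were absent from the Corin list, or 54.5% (28 to 78.7). That interval held the 28.4% of all regions and the 35.2% of regions of equal strength, so the count alone shows no excess. Because the count was small, the same share was taken over all RE1 regions of the genome, a step chosen after its values were seen. Of 258 such regions in the DMSO list, 135 were absent from the Corin list, or 52.3% (46.2 to 58.3), where 28.4% of all regions were absent. Regions of equal strength, in 20 classes of the highest −log10 p, would give 37.6%. Without the windows of the neuronal genes the share was 52.2%, from 129 of 247 regions. For ATRA against DMSO the share lost was 25.2% (20.3 to 30.8), close to the 25.4% of all regions and below the 32.6% at equal strength. The combination against DMSO gave 49.2% (43.2 to 55.3), with 31.6% over all regions and 43.7% at equal strength. When Corin was added to ATRA, 46% (39.9 to 52.2) of the RE1 regions in the ATRA list were missing, against 28.7% of all regions and 42.7% at equal strength. The values at equal strength lay inside the interval for both comparisons of the combination and below it for Corin against DMSO. With 2 mismatches in place of 3, the share lost with Corin was 58.4% (49.2 to 67.1) against 36.4% at equal strength. With 4 mismatches it was 39.3% (36.2 to 42.5) against 36.6%, which lies inside the interval, so the excess over regions of equal strength was not seen at the loosest setting. A search of the whole region instead of the 300 bp around the summit gave 33.8%, from 160 of 473 regions. The reversed element, for which only 4 mismatches gave enough regions, had 28.6% lost with Corin (23.1 to 34.8) against 29.6% at equal strength, to be set beside the 39.3% and 36.6% of the element itself at 4 mismatches.

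Whether the neuronal genes were open at their own starts was asked next, counting any region within 1 kb of an annotated transcript start of the gene. In DMSO 29 of 41 genes were open, in ATRA 27, in Corin 23 and in the combination 25, or 70.7%, 65.9%, 56.1% and 61%. Among all protein-coding genes the shares were 71.6%, 69.3%, 70% and 69.4%. With any annotated start counted, internal ones included, the neuronal genes were thus as often open as other genes in DMSO. Their share with Corin was 56.1% (41 to 70.1), with an upper limit close to the value of all genes. Counting only the 5′ end of the gene record gave 20, 18, 17 and 16 genes. The share of all genes was not taken for that count, so it allows no comparison with other genes. Over the 4 lists, 22 genes (53.7%) were open in every list, 9 (22%) in none and 10 (24.4%) in some, where all protein-coding genes had 66.1%, 25.2% and 8.68%. The 9 closed genes were SYT1, STMN2, GRIA2, NEFL, NEFH, CACNA1B, GLRA1, DLGAP1 and ELAVL3.

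Own starts lost with Corin numbered 7 of the 29 open in DMSO, namely SNAP25, SYT4, SCN3A, CHGA, SCG2, CELF4 and KCNC1. That is 24.1% (12.2 to 42.1), beside 4.37% of all protein-coding genes with an open start in DMSO. Starts of genes whose strongest region fell in the same of 10 strength classes would have given 16.4%, or 4.76 of the 29 genes. ATRA lost 3 of 29 (10.3%), CHGA, CELF4 and KCNC1, beside 5.05% of all genes and 19% at equal strength. The combination lost 5 of 29 (17.2%), SNAP25, SCN3A, CHGA, SCG2 and KCNC1, beside 5.08% and 18.9%. The interval excluded the background of all genes for Corin and for the combination (7.6 to 34.5), not for ATRA (3.58 to 26.4). Against starts of equal strength only the Corin share was higher, and its interval spans the equal-strength value. Gains were 1 gene each, with backgrounds of 1.85% (ATRA), 2.19% (Corin) and 2.1% (combination): RIMS2 in ATRA, GRIN2A in Corin and NEFM in the combination. The RIMS2 regions lay at internal transcript starts, and a region 1216 bp from a coding start of the gene was in every list. Relative to ATRA alone, the combination gained NEFM and CELF4 among its 25 open genes (8%, background 3.17%, 11.4% at equal strength) and lost SNAP25, SCN3A, SCG2 and RIMS2 among 27 (14.8%, background 2.94%, 10.9% at equal strength). Relative to Corin alone it gained SYT4, NEFM and CELF4 (12%, background 2.85%, 10.3% at equal strength) and lost GRIN2A (4.35%, background 3.65%, 9.6% at equal strength). The intervals of these 4 shares, the widest 5.92 to 32.5, all held the equal-strength value.

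**Figure D2:**
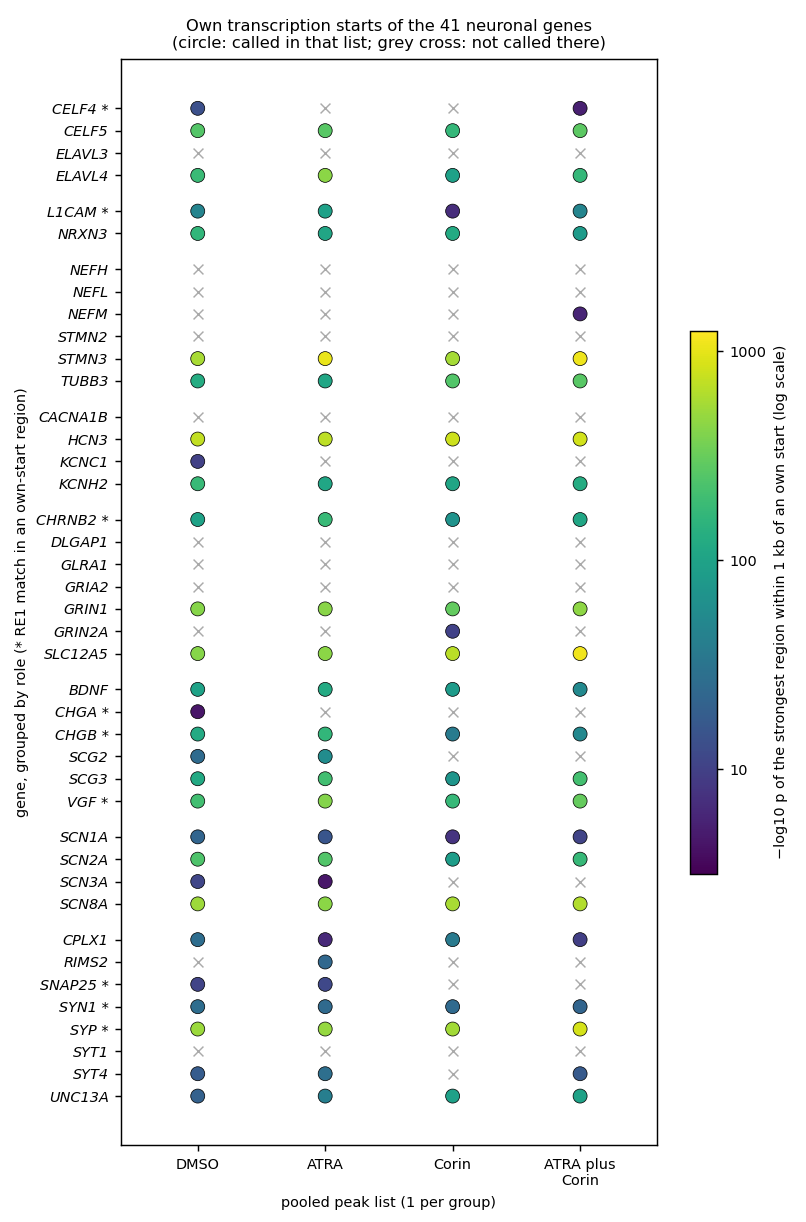
Strongest region within 1 kb of an annotated start of each of the 41 neuronal genes, by pooled peak list and grouped by role. Colour gives −log10 p on a log scale, a grey cross marks a gene with no region there in that list, and an asterisk marks an RE1 match in a start region. The 10 genes with circles in some lists only have darker, weaker circles than most genes open in all 4.

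Genes of the synaptic vesicle and its release machinery were open at their starts in 6 of 8 cases in DMSO, 7 in ATRA, 4 in Corin and 5 in the combination. SYN1, SYP, UNC13A and CPLX1 were open in every list. UNC13A, which primes vesicles for fusion, had a start region with a fold of 3.74 in DMSO, 7.31 in ATRA, 7.84 in Corin and 7.83 in the combination, and its rank went from 9.6 in DMSO to 24.5, 49.3 and 43.8. The unscaled read pileups of that region were 67, 73, 174 and 183 in the same order, so those of DMSO and ATRA were close. CPLX1, a regulator of the fusion clamp, was weak throughout, with 2.70, 2.44, 3.09 and 2.10. The only region near SYT4, a synaptotagmin, had 3.99 in DMSO, 5.83 in ATRA and 3.75 in the combination and was missing from Corin. SYT1, the calcium sensor of fast release, had no open start and 2 intronic regions, both in DMSO, of which only 1 was in another list, that of Corin. RIMS2, a scaffold of the active zone, had 38 regions over its long body, 16 of them in every list. Its regions counted as start regions, at internal transcript starts, were in ATRA only, with a fold of 4.84 and 3.88. A region 1216 bp from a RIMS2 coding start, outside the 1 kb limit, was in every list. It had a fold of 15.6 in DMSO, 17.2 in ATRA, 17.6 in Corin and 18.5 in the combination.

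In the secretory group all 6 genes were open at a start in DMSO, 5 in ATRA and 4 in Corin and the combination. SCG2, a granin, had 1 region, at its start, with a fold of 4.78 in DMSO and 8.99 in ATRA, and it was called in neither list with Corin. SCG3, another granin, had 8.70 in DMSO, 17.2 in ATRA, 7.38 in Corin and 12.7 in the combination, and the 2 lists with ATRA were above the others. Its unscaled read pileups were 201, 236, 137 and 289 in the same order, so DMSO and ATRA were closer than in fold. What the difference in fold came from was not tested. BDNF, a neurotrophin, had 1 region, at a transcript start inside the gene record, with 10.7, 14.5, 9.34 and 6.96. The granin CHGA had 5 weak regions, none of them in all lists and none with a fold above 2.74, and 3 of them were in the combination and not in DMSO. Genes with as many regions gained 0.35 with the combination over DMSO on average.

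The sodium channel genes SCN1A, SCN2A, SCN3A and SCN8A were all open at a start in DMSO and ATRA. SCN3A lost its start region with Corin and with the combination; it had a fold of 3.19 in DMSO and 2.37 in ATRA. That region lies in the windows of SCN3A and SCN2A and was counted for both. SCN2A, described here because its values stood out, had 6 regions, all of them in DMSO and ATRA, of which Corin kept 2 and the combination 3. Genes with as many regions lost 1.09 with Corin on average, against 4 for SCN2A. Its start region had a fold of 18.9 in DMSO, 23.9 in ATRA, 9.62 in Corin and 14.6 in the combination, so that its rank was 95.1, 96.2, 60.3 and 79.9. An intronic region of the gene had 6.02, 9.62, 3.11 and 3.41, again lowest in the 2 lists with Corin. SCN8A, with 17 regions, was high at its start in every list, from 18.2 to 18.8. SCN1A was open at a start in every list, but not at the same region. One had a fold of 4.42 in DMSO, 4.25 in ATRA and 2.69 in Corin and was missing from the combination. The other was in the lists with Corin only, with 2.33 in Corin and 3.01 in the combination.

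Among the other channel genes, KCNC1, a potassium channel of fast-spiking neurons, had 9 regions, of which 7 were in DMSO, 6 in ATRA and 2 each in Corin and the combination. Corin lost 5 of the 7, where genes with as many regions lost 1.73 on average. Its start region, at an internal transcript start, was in DMSO only, with a fold of 2.88. Its exonic region at chr11:17855679-17856333 had a fold of 9.28 in DMSO and 13.0 in ATRA, no call in Corin and 2.21 in the combination. The region in an intron at chr11:17821708-17822763 had 8.33 and 8.99 and was in neither list with Corin. Another, at chr11:17760422-17760959, had 6.80 in DMSO, 5.44 in ATRA and 4.10 in Corin and was missing from the combination. A flanking region upstream of the gene was high in all lists, from 14.5 to 21.1, so the losses did not extend over the whole locus. KCNH2, a cardiac and neuronal potassium channel, was open at a start in every list, with a fold of 8.25 in DMSO and 6.65 in Corin. HCN3, a pacemaker channel, was as well, with 9.31 to 10.3 over the lists. CACNA1B, a presynaptic calcium channel, was closed at its starts, and its 4 intronic regions were weak: 3 were in the combination alone, with a fold of 1.94 to 2.21, and 1 in DMSO and Corin. Genes with as many regions gained 0.256 with the combination over DMSO on average, against 3 for CACNA1B.

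For receptors, postsynaptic scaffold and chloride transport, 3 of 7 genes were open at a start in DMSO, ATRA and the combination, and 4 in Corin. CHRNB2, GRIN1, a subunit of all NMDA receptors, and SLC12A5 were open in every list. For GRIN1 these regions were at internal transcript starts, the strongest of them 10319 bp from its nearest coding start. A region 1295 bp from a GRIN1 coding start was in Corin only, with a fold of 2.69. At its strongest start region SLC12A5 had a fold of 11.5 in DMSO, 12.6 in ATRA, 13.6 in Corin and 14.6 in the combination. GRIN2A, another NMDA receptor subunit, had a start region in Corin only, with a fold of 3.04, and lost an intronic region (3.55 in DMSO and 7.12 in ATRA) in the lists with Corin. GRIA2, an AMPA receptor subunit, had no region although an exact RE1 match lies 245 bp from a start. GLRA1, a glycine receptor subunit, and DLGAP1, a postsynaptic scaffold protein, were closed at their starts. DLGAP1 had 38 regions in its body, 24 of them in every list, which was the largest number of constant regions in the set.

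Of the 6 cytoskeletal genes 2 were open at a start in DMSO, ATRA and Corin and 3 in the combination. NEFL, a neurofilament gene, had no region at all. NEFM had 1, at its start and in the combination only, with a fold of 2.34. NEFH, for the heavy neurofilament chain, had 3 regions away from its start, of which an exonic one had 2.90 in DMSO, 15.3 in ATRA and 6.56 in the combination and no call in Corin. STMN2, a neuronal stathmin, was closed at its start, and its intronic region in all lists had 5.72, 10.3, 4.03 and 7.43. STMN3, a related stathmin, and TUBB3 were open in every list. TUBB3 had a fold from 3.52 in DMSO to 4.66 in Corin. For STMN3 the fold at the start was 8.73 in DMSO, 12.6 in ATRA, 8.79 in Corin and 11.5 in the combination.

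The 2 adhesion genes carried 54 regions and the 4 RNA-binding protein genes 55. NRXN3 had the most of any gene, 44, of which 30 were in DMSO, 35 in ATRA and 22 each in Corin and the combination. Genes with about as many regions gained 7 with ATRA on average, against 10 for NRXN3. They lost 9.1 with Corin, against 13. NRXN3 had 2 start regions in every list. The region at the start itself had a fold of 10.2 in DMSO, 4.78 in ATRA, 8.88 in Corin and 8.64 in the combination. The other, 933 bp from that start, had 8.07, 12.2, 6.24 and 5.02. The folds went opposite ways between DMSO and ATRA. The unscaled read pileups were lower in ATRA for both, 56 against 251 for the first and 143 against 194 for the second. The most frequent background of the lists was 9.12 in ATRA and 12.8 in DMSO. Whether the second region differed beyond this difference in scale was not tested. L1CAM had 10 regions, none of them in all 4 lists, where 41.1% of all regions were. CELF4 had 30 regions, 24 of them in 1 list only: 8 in DMSO, 1 in ATRA, 7 in Corin and 8 in the combination. Those of the combination had a fold of 1.63 to 2.54. Of all regions 33.6% were in 1 list only. Over DMSO, genes with about as many regions as CELF4 gained 4.60 with ATRA on average, against 1 for CELF4. They gained 3.33 with Corin, against 7, and 3.04 with the combination, against 8. CELF5, a relative of CELF4, and ELAVL4, another neuronal RNA-binding protein, were open in every list. The start of ELAVL4 had a fold of 12.5 in DMSO, 19.2 in ATRA, 8.67 in Corin and 10.7 in the combination. Its relative ELAVL3 was closed at its starts and had 8 regions nearby.

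**Figure D3:**
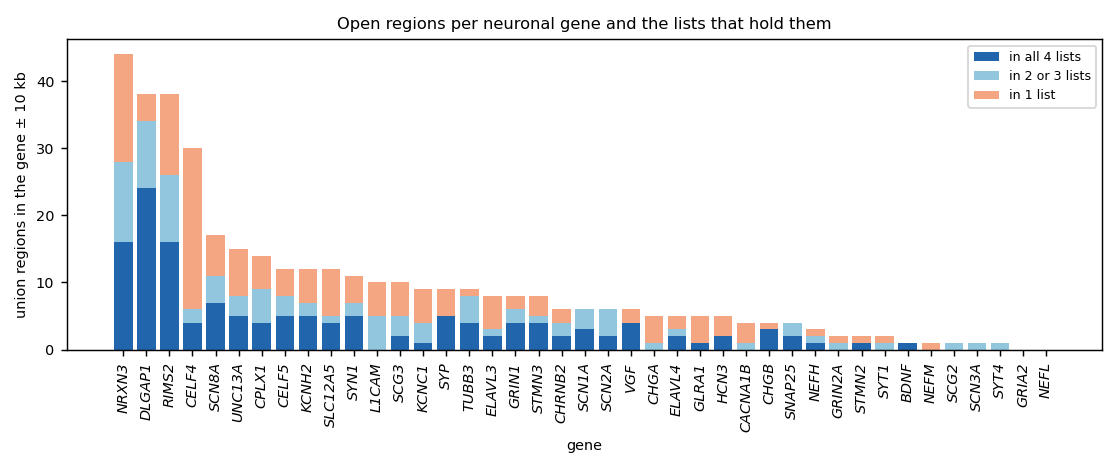
Number of regions within each neuronal gene or 10 kb of it, split by the number of lists that hold them. NRXN3, RIMS2, DLGAP1, CELF4 and SCN8A together hold 167 of the 383, and GRIA2 and NEFL hold none.

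Over the whole set, the shares of regions gained and lost near the neuronal genes had intervals that held the share of all regions in each of the 5 comparisons. ATRA gained 51 of the 242 regions in its list, or 21.1% (16.4 to 26.6), beside 23.3% of all regions. It lost 76 of the 267 in DMSO, or 28.5% (23.4 to 34.2), beside 25.4%. Corin gained 46 of 224, or 20.5% (15.8 to 26.3), beside 17.8%, and lost 89 of 267, or 33.3% (28 to 39.2), beside 28.4%. The combination gained 36 of 207, or 17.4% (12.8 to 23.1), beside 16.6%, and lost 96 of 267, or 36% (30.4 to 41.9), beside 31.6%. All 6 background values lay inside the interval for the neuronal genes, and losses were above the background in each case. Some other ways of assigning regions put the losses further above it. With gene bodies alone 37.5% (31.3 to 44.1) were lost with Corin and 38.4% (32.2 to 45.1) with the combination. For regions whose nearest coding start was that of the gene, 34.9% (28.5 to 41.8) and 38.5% (31.9 to 45.5) were lost. These 4 intervals exclude the 28.4% and 31.6% of all regions. Shares at equal strength were not taken for these assignments. With 50 kb on either side the losses were 27.7% and 32.8%, and both intervals held the background. They also held it with a limit of 5 on −log10 q. The losses were then 26.8% (21.6 to 32.8) and 31.1% (25.5 to 37.2), beside 25.3% and 26.7% of all regions. Added to ATRA, Corin brought 38 of 207 regions (18.4%, background 15.4%) and removed 73 of 242 (30.2%, background 28.7%). ATRA added to Corin brought 49 of 207 (23.7%, background 20.4%) and removed 66 of 224 (29.5%, background 25.1%).

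Genes with as many regions gave 22.1% gained and 23.7% lost with ATRA. With Corin they gave 16.7% and 26.4%, and with the combination 15.3% and 29.5%. The shares lost with Corin and with the combination were above these by more than the counting interval allows, 28 and 30.4 being the lower limits. The same held for regions of the Corin list lost in the combination, 29.5% (23.9 to 35.7) against 23.4%. The regions near the neuronal genes were also weaker, with a median highest −log10 p of 28.8 against 37.7 over all regions. At equal strength 27.1% would be lost with ATRA, 30.8% with Corin and 34.7% with both, all inside the intervals. The regions had a median GC content of 53%, compared with 48.3% over all regions. Regions in all 4 lists made up 36.8% of them against 41.1% of all regions, and regions in 1 list only made up 39.2% against 33.6%. The DMSO list was the longest, and in lists of equal length 22.7% were lost with ATRA, 23.6% with Corin and 25% with both, beside 18.3%, 19.5% and 20.8% of all regions. In these lists the combination gained 27.1% (21.5 to 33.5) over ATRA, above the 19.8% of all regions. With a limit of 5 on −log10 q the shares gained were 11.3% for Corin and 10% for the combination, beside 11.3% and 13.2% of all regions.

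**Figure D4:**
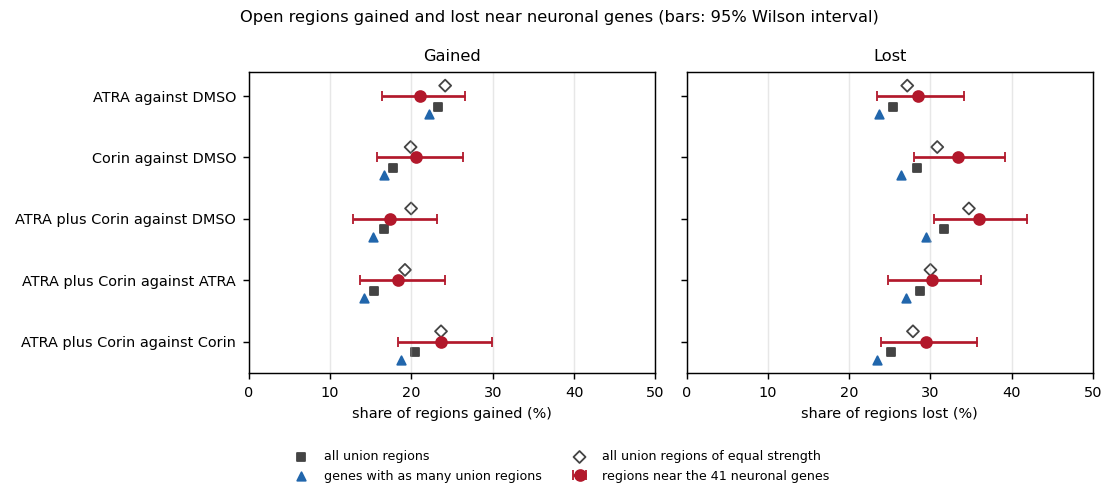
Percent of regions near the 41 neuronal genes gained (left) and lost (right) in 5 comparisons of pooled lists, with 95% Wilson intervals over regions. Squares give all regions, triangles genes with as many regions and open diamonds regions of equal strength. The diamonds lie inside the interval in each comparison, and for losses against DMSO the triangles lie at the lower end of the interval or below it.

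The strongest regions that changed were mostly in gene bodies. With ATRA the strongest gain was in an exon of CHGB at chr20:5923356-5923802, where −log10 p was 116 and the fold 9.47, in the ATRA list only. The next gains, 62.8 and 61.8, were in introns of NRXN3, and the first of these was also in the combination at 14.9. The strongest losses with ATRA were an intronic region of L1CAM, at 57.9 in DMSO and in no other list, an intronic region of UNC13A, at 52.8 in DMSO, and a region flanking VGF, at 41.2. The UNC13A region was called in Corin at 69.1 and in the combination at 78.4, so only ATRA alone lacked it. With Corin the strongest gain was an intronic region of NRXN3 at chr14:78254022-78254332, with 118 and a fold of 7.09, found in no other list. It was followed by an intronic region of DLGAP1 at 52.8, also in Corin alone, and a second intronic NRXN3 region at 33.4 that was in the combination too, at 40.7. That NRXN3 region was the strongest gain of the combination, before one in DLGAP1 at 29.5, present in Corin at 33.4, and an exonic one in RIMS2 at 20.5, present in ATRA at 14.7. The strongest losses with Corin were the exonic and the intronic KCNC1 regions above, at 79.4 and 66.6 in DMSO, and the L1CAM region. Those of the combination were the same intronic KCNC1 region, the L1CAM region and the KCNC1 region at chr11:17760422-17760959, at 48.3. As median, gained and lost regions were much weaker than those kept: with Corin the lost ones had 10.6 in DMSO and the kept ones 90.1.

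Regions called in all 4 lists allow the height itself to be set side by side, as ranks. The 141 such regions near neuronal genes had a median rank of 48.7 in DMSO, 47.9 in ATRA, 46.2 in Corin and 43.8 in the combination, on a scale where the median of all 66303 regions is near the middle. The median rank difference from DMSO was −2.71 with ATRA, 0.163 with Corin and −0.436 with both, beside −1.45, 0.335 and 0.463 over all regions. With Corin 76 regions ranked higher than in DMSO and 65 lower. With ATRA the numbers were 60 and 81, and with the combination 68 and 73. The constant regions thus went both ways, with the starts of CHGB and SCN2A lower and that of UNC13A higher with Corin. Among the 101 RE1 regions of the genome in all lists, 39 ranked higher and 62 lower with Corin, with a median difference of −3.11, and with ATRA 68 ranked higher and 33 lower, with a median of 7.09. Ranked by −log10 p instead, Corin gave 29 higher and 72 lower, with a median of −4.81, and ATRA 56 higher and 45 lower, with a median of 1.07. The 5 of them near neuronal genes had median differences of 0.163 with Corin and 7.09 with ATRA by fold, and of −2.08 and −1.16 by −log10 p. The sign for these 5 thus depended on the measure.

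**Figure D5:**
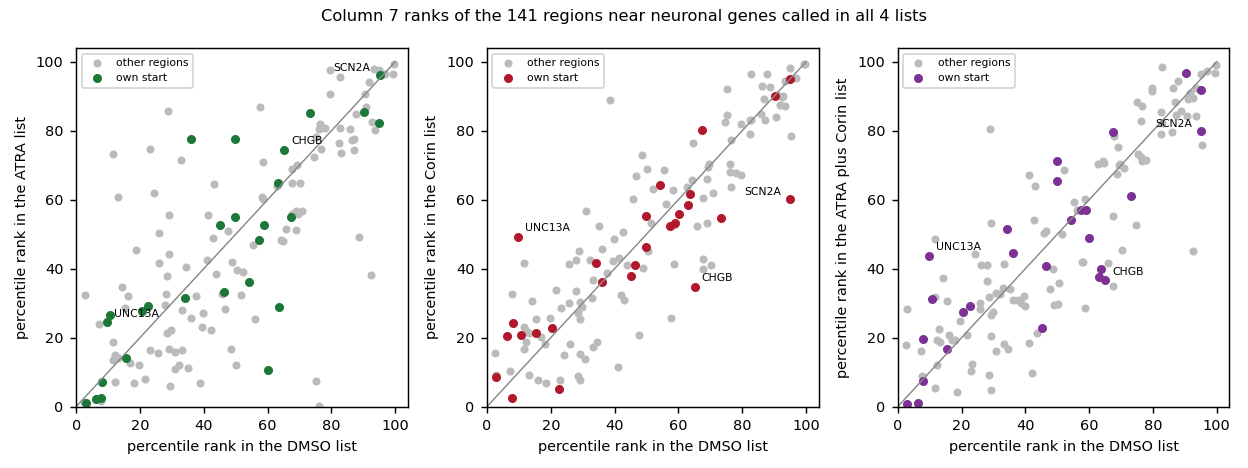
Percentile rank of column 7 in each treatment list against DMSO for the 141 regions near neuronal genes called in all 4 lists, with regions at an own start in colour and others in grey. The diagonal marks equal ranks. CHGB and SCN2A lie below it in both lists with Corin, and UNC13A lies above it in all 3 panels.

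Genes for REST itself and its co-repressor proteins, among them RCOR1 (CoREST), KDM1A, HDAC1, HDAC2 and SIN3A, were open at a start in every list, 15 of 15. Of all protein-coding genes 66.1% were open in every list. Another 32 neuronal genes outside the set, such as GAP43, MAPT and DLG4, were open at a start in 20 cases in DMSO and 18 in each of the other lists. Among all protein-coding genes the shares were 71.6% in DMSO, 69.3% in ATRA, 70% in Corin and 69.4% in the combination. Regions of these 32 genes were lost with Corin in 81 of 254 cases, or 31.9% (26.5 to 37.9), beside 28.4% of all regions. With the combination 82 were lost, or 32.3% (26.8 to 38.3), beside 31.6%. Both intervals held the share of all regions.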

How the data were processed

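The authors deposited 1 peak list per treatment, pooled over 2 samples, in narrowPeak form. Per the submitters' processing notes, cutadapt, Bowtie2, SAMtools, Picard and MACS2 were used with build hg38; their settings are not given in the sources used here. In the deposited lists column 7 is a fold over local background (a ratio), columns 8 and 9 are −log10 p and q, the last column is the authors' summit distance in bp, and their score column was not used.

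Overlapping peaks (1 bp) of a list were merged, and regions of the 4 lists were joined into union regions; a region was gained or lost when 1 list of a pair held it and the other did not. Its values are those of its strongest peak. Genes came from GENCODE release 44. Each gene was compared with all other coding genes having as many union regions (widened until 50 genes were found). Pileups were solved from p and fold; they came out whole, within 0.05, in all 940 list entries near the genes. Columns of other samples numbered 0. The members and lists were chosen with earlier results of these data known. Described with values are the 3 strongest gained and lost regions per treatment, genes whose start differed among lists, genes with an RE1 match and those with most regions; other values were chosen after they were seen. Of the regions with an RE1 match, 1 is not reported here. Scripts used Python 3.11.15 and were tested on simulated data and against bedtools 2.31.1. Alternatives are in the closing section.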

Additional observations from a re-analysis of the deposited data

How the results depend on the processing

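No paired analysis was possible because the replicates of a group were pooled in 1 list, and for the same reason no replicate could be left out. Over 21 results and 157 alternatives, 134 stayed within the interval of the value or within 1.5 times the count, and 23 moved outside it. In lists of equal length (94917 regions) ATRA gained 14.8% and lost 22.7%, losses were 23.6% with Corin and 25% with the combination, and the combination gained 27.1% over ATRA (19.8% of all regions) and lost 23% of ATRA and 23.8% of Corin. Of the RE1 regions of ATRA, 36% were then lost with the combination. Keeping peaks with −log10 q of at least 5, ATRA lost 23%, Corin gained 11.3% and lost 26.8%, the combination gained 10% over DMSO, 10.6% over ATRA and 15.6% over Corin, and it lost 21.6% of Corin. With 50 kb on either side of a gene 27.7% were lost with Corin, now below the 28.4% of all regions, and 18.2% were gained by the combination over Corin. The 5′ end of the gene record alone left 16 genes open in the combination. For RE1 regions lost with Corin, 2 mismatches gave 58.4%, 4 gave 39.3% and a search of the whole region 33.8%; for the combination against ATRA 4 mismatches gave 34.9% and the whole region 30.9%. These RE1 settings and a shared floor of −log10 p were chosen after the data were seen. The cause of these changes was not tested. The share changed its side of the background in 3 alternatives for gains of the combination over DMSO, in 2 for its gains over Corin, in 2 for its losses from ATRA (28.5% without NRXN3) and in 1 for losses with Corin. Of 110 alternatives for shares gained and lost near the neuronal genes, 12 had an interval that excluded the share of all regions. Read depth is unknown, so a region missing from a list may have been below its limit.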
